A study of Rattus norvegicus with 16 samples.

Results

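The cytosolic ribosomal protein genes of rat liver were followed across 4 groups of libraries that differ in Tspo genotype and in diet. Members were the genes of the deposited count table whose symbol is Rpl or Rps with a number (and at most one of the letters a, x or l after it), or Rplp0, Rplp1 or Rplp2, with at least 10 counts in at least 4 libraries. Of 17168 genes in the table, 79 had such a symbol and 77 met the count minimum, 31 of them genes of the small (40S) subunit and 46 of the large (60S) subunit. All 77 were among the 11162 genes tested. The 2 that fell short were Rpl39l, with at most 11 counts in a library, and Rpl3l, with at most 2. Rpsa and Fau, which also encode ribosomal proteins, carry other symbols and were among those handled as a separate list.

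RNA came from the liver of Sprague Dawley rats of 2 genotypes, wild type (WT) and tspo -/- (the knockout, KO). Tspo encodes the translocator protein, which sits in the outer membrane of mitochondria. The rats ate chow until 12 weeks of age and then either chow or a methionine-choline deficient (MCD) diet for 8 weeks, so all were 20 weeks old when sampled. The MCD diet is a standard way to induce steatohepatitis in rodents, and the comparison of genotypes asks what loss of Tspo adds to it. Each of the 4 groups (WT chow, KO chow, WT MCD and KO MCD) has 4 libraries, numbered 1 to 4 as in their labels. The series title speaks of mice, whereas every sample is labelled rat, and the sources used here do not give the part of Tspo that was removed. Whether libraries of 1 group are separate animals is not stated, so the p-values rest on the spread among these libraries, which may be technical. No label names a batch.

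A ribosome is built from ribosomal RNA and one copy of most ribosomal proteins, so cells make the proteins in matched amounts. Their messages are abundant, short and mostly begin with a 5′ terminal oligopyrimidine (TOP) tract, a C followed by a run of C and T, through which the nutrient-sensing kinase complex mTORC1 and the protein LARP1 control their translation and stability. The liver, which exports most plasma proteins, has a high demand for ribosomes and adjusts it to the supply of amino acids, methionine among them.

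The starts of a few members show the tract and were chosen because these genes carry the results below. Each line gives 30 bases of RefSeq sequence (build GRCr8), 14 before the annotated start of the gene and 16 from it, 5′ to 3′, with the tract in capitals. The count table was made on another build, so the sequences were matched to members by symbol.
Rplp0 (chr12:46718375-46718404, minus strand): accgcaccgcacttCTCTCgccaggcgtcc
Rpl37a (chr9:81748077-81748106, plus strand): catgcccgttgcgtCTCTTCCTCTTCgggc
Rpl19 (chr10:83519050-83519079, plus strand): gcgaccagcaagctCTTTCCTTTCgctgct
Rplp1 (chr8:71290857-71290886, minus strand): caggcgcatgtgatCCTTTCCTCagctgcc
Rps27 (chr2:177964591-177964620, minus strand): tttccgctttcgctCCTTTCCggcggtgac
Rps27l (chr8:76443644-76443673, plus strand): tttattcatttgtcattatttgtggtgtcc
With all libraries Rplp0 and Rpl37a were among the genes higher on MCD, while Rplp1, Rps27 and Rpl19 were not called for diet. These last lay far from the rest of their group in the library labelled KO chow 4. Without the library labelled KO MCD 1, Rplp1 and Rps27 were called lower on MCD in the knockout. Rps27l, the paralog of Rps27, has no tract at its annotated start and was the 1 member called lower on MCD with all libraries. The printed starts do not tie the tract to a direction. Of other members called higher in the knockout, Rpl3 and Rpl6 have no C at their annotated start. Rpl4 and Rps4x have only 3 and 4 such bases there, and Rpl17 has a tract of 8.

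Libraries held 8745756 to 15762650 counts. Tspo, the targeted gene, stood at 3.80, 4.37, 3.61 and 5.23 CPM (counts scaled to a common library total) in WT chow 1 to 4 and at 1.14, 0.656, 1.29 and 4.42 CPM in KO chow 1 to 4. On MCD it was 8.78, 9.33, 7.94 and 7.63 CPM in WT and 4.17, 1.66, 1.02 and 1.21 CPM in KO. The library labelled KO chow 4 lay inside the range of WT chow, against its label, so directions drawn from KO chow include a library in doubt. The library labelled KO MCD 1 lay above the other KO MCD libraries and below WT MCD. Those 2 libraries and WT chow 4 also stood apart in message length: the mean log2 CPM of 13 long messages minus that of 32 short ones was -0.986, -0.452 and -0.200 in KO chow 4, KO MCD 1 and WT chow 4. The remaining chow libraries had 0.0591 to 0.338 and the remaining MCD libraries 1.25 to 1.76. The counts of called genes are therefore given with and without these 3 libraries. All 8 hepatocyte markers on the list (Alb and Ttr among them) were present, with a summed level of 172347 to 242015 CPM on chow and 99163 to 138701 CPM on MCD, and none was at 0. In such bulk samples fewer cells of a type and less RNA per cell cannot be told apart.

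The members took up a larger share of all counts on MCD than on chow. In WT chow 1 to 4 the share was 1.80%, 1.68%, 1.89% and 2.14%, against 2.35%, 2.39%, 2.84% and 2.50% in WT MCD. In the knockout it was 1.52%, 1.66%, 1.71% and 3.72% on chow and 4.47%, 2.25%, 2.90% and 2.39% on MCD. Every WT MCD library lay above every WT chow library, whereas the library labelled KO chow 4 exceeded 3 of the 4 KO MCD libraries. Group means were 1.88% ± 0.199 (SD, n = 4) for WT chow, 2.15% ± 1.05 for KO chow, 2.52% ± 0.221 for WT MCD and 3.00% ± 1.02 for KO MCD, so that the mean on MCD was 1.34 times that on chow in WT and 1.40 times in KO. These ratios were 1.41 and 1.54 without the 3 libraries. The knockout mean was 1.15 times the wild-type mean on chow and 1.19 times on MCD with all libraries, and 0.911 and 0.998 times without the 3. No test was made of these sums.

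**Figure D1:**
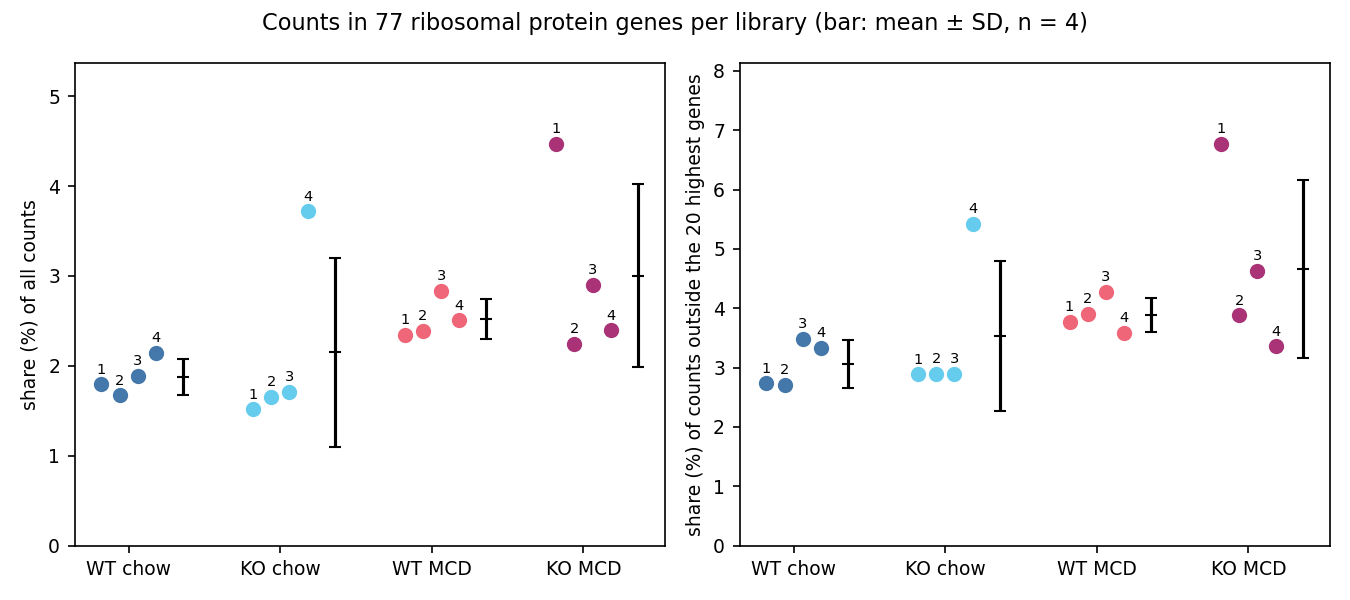
Share of counts in the 77 ribosomal protein genes, as percent of all counts (left) and of counts outside the 20 highest genes (right), 1 numbered point per library, with mean ± SD (n = 4) beside each group. WT MCD 1 to 4 lie between 2.35% and 2.84% of all counts, above all WT chow libraries; KO chow 4 (3.72%) and KO MCD 1 (4.47%) lie far above the other libraries of their groups.

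The 20 genes with the most counts, which took 28.8% to 47.6% of a library, bear on this share. They include 2 rows of ribosomal RNA (Rn45s and Rn28s), which together held 2.48% to 21.8% of counts, and Alb. With those 20 genes left out the mean shares were 3.07%, 3.53%, 3.89% and 4.66% for WT chow, KO chow, WT MCD and KO MCD, and MCD over chow came to 1.27 in WT and 1.32 in KO. For tests on single genes the libraries were scaled with TMM factors, which set the bulk of genes equal. Those factors were 0.644 to 1.00 on chow and 1.14 to 1.35 on MCD, so a gene whose raw share of counts rose with the bulk of genes shows no change in CPM as given here. On that scale the median of the 77 log2 fold changes for diet was -0.15 in the wild type, where that of all genes tested was -0.0023, and 0.01 in the knockout, where that of all genes was 0.04. With plain library totals the median of members was 0.38 and 0.73 and that of all genes 0.53 and 0.76, so the sign of the members' median in the wild type turns with the scaling, while it was below that of all genes on either scale.

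In the wild type 3 of 77 members were higher on MCD and 0 lower (edgeR quasi-likelihood test, p adjusted after Benjamini and Hochberg over all genes, threshold 0.05), while 34.1% of all genes tested were called, 18.2% higher and 15.9% lower. Rplp0 and Rpl3 were among the 3, and 26 members had a positive and 51 a negative fold. In the knockout 9 members were higher and 1 lower, against 40.4% of all genes, 21.9% higher and 18.5% lower. The 9 included Rplp0, Rpl3, Rpl4, Rpl6, Rps4x, Rpl17 and Rpl37a, and the 1 was Rps27l. Both shares of members are below those of all genes. By group overlap, 9 members in WT and 10 in KO had all MCD libraries on one side of all chow libraries, where 38% and 31.6% of all genes did. Leaving out 1 library moved the knockout counts most: 4 members were higher without KO MCD 3, 6 without WT chow 1, KO chow 3 or KO chow 4, and between 7 and 11 without any one of the others. The lower count in the knockout was 22 without KO MCD 1, and the call of Rps27l was lost without WT chow 2, KO chow 4, WT MCD 1, WT MCD 2, KO MCD 2, KO MCD 3 or KO MCD 4 (wild-type libraries share in the estimate of the spread). In the wild type 2 were higher without WT chow 1, WT chow 2, WT chow 4 or WT MCD 3, and 1, Rpl37, was lower without KO MCD 1. With the message length index as a covariate, Rplp0 kept its call in both genotypes and Rpl17 in the knockout, while the others named here lost theirs. With plain library totals 28 members were higher in WT and 48 in KO, where 47.6% and 61.4% of all genes were called.

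Among 60S genes, Rplp0 encodes P0, the base of the stalk on which translation factors land. It stood at 411, 441, 388 and 390 CPM in WT chow and at 561, 617, 660 and 629 CPM in WT MCD. In the knockout it stood at 357, 420, 394 and 393 CPM on chow and at 795, 645, 658 and 585 CPM on MCD. Every MCD library lay above every chow library, including the 3 libraries that stood apart. The log2 fold was 0.60 ± 0.14 (SE) in the wild type (adjusted p = 0.0045) and 0.78 ± 0.14 in the knockout (adjusted p = 0.000614). The other stalk genes were not called with all libraries, though Rplp1 was called lower in the knockout without KO MCD 1. Rplp1 was 383, 511, 576 and 1002 CPM in WT chow and 411, 408, 588 and 424 CPM in WT MCD, with a log2 fold of -0.43 ± 0.65 (adjusted p = 0.633). Rplp2 was 188, 151, 251 and 127 CPM in WT chow and 161, 158, 175 and 156 CPM in WT MCD, with a log2 fold of -0.14 ± 0.20 (adjusted p = 0.601). In the knockout the log2 fold was -1.09 ± 0.66 for Rplp1 (adjusted p = 0.198) and 0.33 ± 0.20 for Rplp2 (adjusted p = 0.196). The diets overlapped for both genes in both genotypes.

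Rpl3 encodes a protein that reaches to the peptidyl transferase centre, where peptide bonds form. Its levels were 268, 255, 269 and 191 CPM in WT chow against 405, 383, 429 and 381 CPM in WT MCD, and 282, 293, 254 and 179 CPM in KO chow against 326, 389, 477 and 398 CPM in KO MCD. The groups did not overlap in either genotype. Its log2 fold was 0.70 ± 0.18 in the wild type (adjusted p = 0.00753) and 0.66 ± 0.18 in the knockout (adjusted p = 0.00915). Rpl4 and Rpl17, whose proteins extend into the tunnel through which the new chain leaves, were called in the knockout. Rpl4 rose there from 510, 529, 466 and 271 CPM to 592, 633, 693 and 666 CPM, a log2 fold of 0.54 ± 0.21 (adjusted p = 0.0476, or 0.0609 with the size factors of DESeq2 and 0.0543 with no filter on low counts). Rpl17 rose from 205, 208, 198 and 166 CPM to 323, 251, 293 and 227 CPM, a log2 fold of 0.49 ± 0.17 (adjusted p = 0.0262). In the wild type the libraries of the 2 diets did not overlap for either gene, with log2 folds of 0.35 ± 0.21 and 0.33 ± 0.17 (adjusted p = 0.205 and 0.13).

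Rpl6 and Rpl37a of the 60S subunit were also higher on MCD in the knockout. Rpl6 went from 233, 249, 238 and 189 CPM to 342, 303, 327 and 311 CPM, a log2 fold of 0.50 ± 0.15 (adjusted p = 0.013). Rpl37a, named after its value was seen, encodes a small zinc-finger protein of the large subunit. It went from 86.6, 85.3, 72.8 and 56.9 CPM to 112, 95.0, 119 and 88.5 CPM, a log2 fold of 0.46 ± 0.16 (adjusted p = 0.0341). For both genes all 4 KO MCD libraries lay above all 4 KO chow libraries. Without the 3 libraries that stood apart Rpl37a was at a log2 fold of 0.31 with an adjusted p of 0.0673.

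Among 40S genes, Rps4x, the X-linked form of a 40S protein, stood at 279, 305, 241 and 251 CPM in KO chow and at 289, 387, 463 and 381 CPM in KO MCD, a log2 fold of 0.50 ± 0.18 (adjusted p = 0.0341). Here the library labelled KO MCD 1 lay inside the KO chow range. In the wild type Rps4x stood at 307, 316, 373 and 223 CPM on chow and at 401, 379, 401 and 374 CPM on MCD, just without overlap, and was not called (log2 fold 0.35 ± 0.18, adjusted p = 0.131).

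Rps27l, a p53-induced paralog of Rps27, was the 1 member called lower with all libraries. It stood at 101, 75.4, 92.0 and 240 CPM in KO chow and at 117, 53.6, 52.9 and 40.7 CPM in KO MCD, a log2 fold of -0.94 ± 0.35 (adjusted p = 0.0417). Its highest values in the 2 groups were the libraries labelled KO chow 4 and KO MCD 1, and the groups overlapped through the latter. In the wild type it was 60.6, 72.8, 83.0 and 95.5 CPM on chow and 49.2, 47.7, 62.4 and 42.6 CPM on MCD, a log2 fold of -0.63 ± 0.35 (adjusted p = 0.174). Without the 3 libraries it was called lower in both genotypes, by a log2 fold of -0.51 ± 0.16 in the wild type (adjusted p = 0.0133) and -0.87 ± 0.17 in the knockout (adjusted p = 0.000607). Rps27 itself was not called with all libraries (log2 fold -0.72 ± 0.60 in WT and -1.18 ± 0.60 in KO, adjusted p = 0.365 and 0.125).

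**Figure D2:**
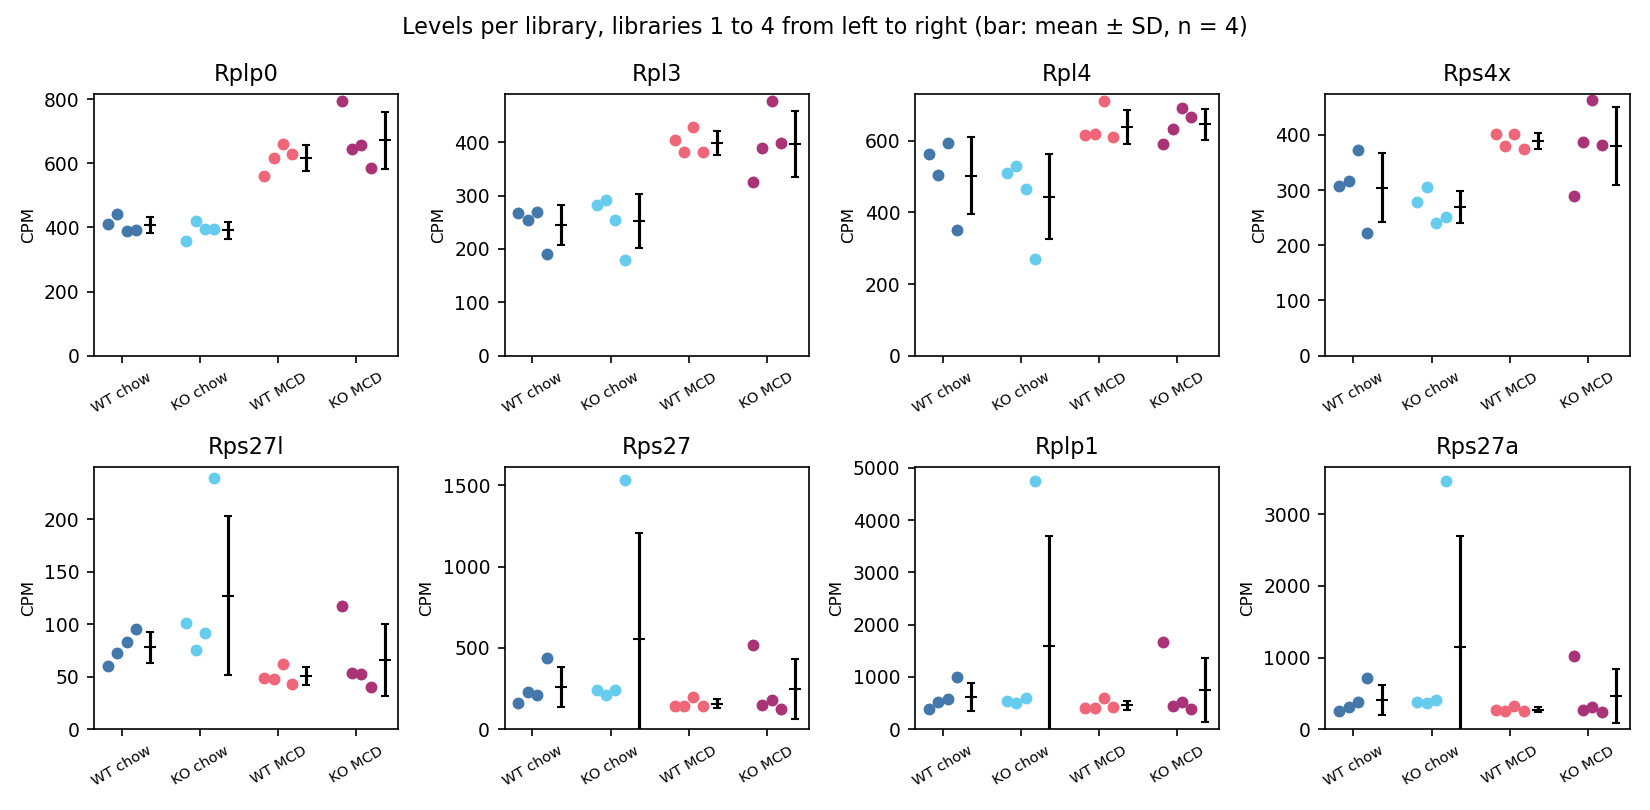
Levels of 8 ribosomal protein genes in CPM (linear axes from 0), 1 point per library with libraries 1 to 4 from left to right in each group; bars are mean ± SD (n = 4), cut at 0 where the SD exceeds the mean. For Rplp0, Rpl3 and Rpl4 every MCD library lies above every chow library of the same genotype, while for Rplp1, Rps27a, Rps27 and Rps27l the library labelled KO chow 4 is the highest of all 16.

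Leaving out the 3 libraries changed which members were called lower. In the wild type 4 members were then higher (Rplp0, Rpl3 and Rps3a among them) and 8 lower (Rpl10, Rpl18, Rpl24, Rpl27, Rpl37, Rps21, Rps27l and Rps29), where 50.5% of all genes were called, 25.8% higher and 24.7% lower. In the knockout 10 were higher and 17 lower, where 51.6% of all genes were called, 27.9% higher and 23.8% lower. The 10 included Rplp0, Rpl3, Rps4x, Rpl4, Rpl6, Rpl17, Rpl13 and Rps26, and the 17 include Rps27, Rps27a, Rps27l, Rpl36a, Rpl39, Rpl13a and Rps2. Log2 folds of the 27 called there ran from -0.87 for Rps27l to 0.69 for Rplp0. Rpl10, whose protein joins the large subunit last and completes its tRNA sites, was lower in both genotypes, by a log2 fold of -0.38 ± 0.12 in the wild type (adjusted p = 0.0197) and -0.36 ± 0.13 in the knockout (adjusted p = 0.0337). With all libraries Rpl10 stood at 545, 564, 651 and 523 CPM in WT chow and at 467, 408, 515 and 417 CPM in WT MCD, groups that did not overlap, with a log2 fold of -0.34 ± 0.16 (adjusted p = 0.118). In the knockout it was not called with all libraries, and the groups overlapped. There KO MCD 1 stood at 655 CPM, above KO chow at 548 to 602 CPM, while the other KO MCD libraries had 416 to 513 CPM.

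The size of the diet effect was set side by side for the 2 genotypes, which do not share samples. For 26 members the fold was positive in both, for 37 negative in both, for 14 negative in WT and positive in KO, and for 0 the other way round. The test of the difference between the diet effects called 0 members and 0 of all genes, with 0 members at an unadjusted p under 0.05 in edgeR and 0 members called by DESeq2. Without the 3 libraries it called 0 members, where 0.178% of all genes were called, 0.16% with a positive and 0.0178% with a negative difference. With all libraries the smallest p was for Rplp2 (difference of log2 folds 0.47 ± 0.28, adjusted p = 1.00). The genes called in the knockout and not in the wild type are thus not shown to differ between genotypes.

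**Figure D3:**
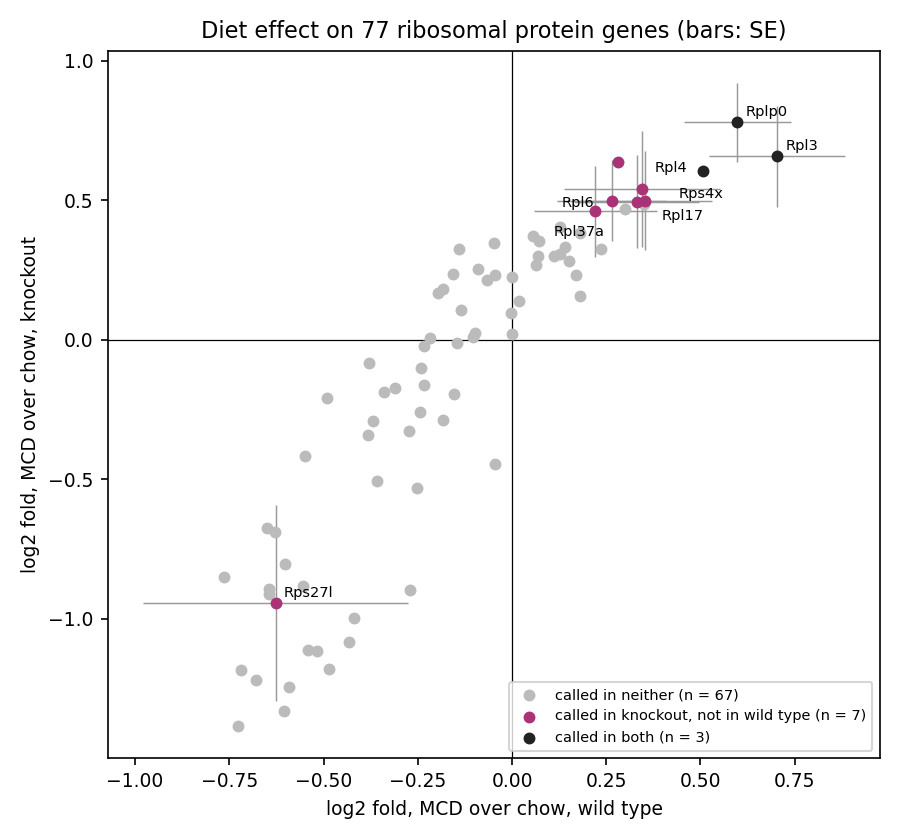
Log2 fold change on MCD over chow in the wild type (horizontal) and the knockout (vertical) for each of the 77 genes, with SE bars on the named genes. The 3 black points, Rplp0 and Rpl3 among them, were called in both genotypes and 7 others (purple) in the knockout, among them Rps27l at the lower left.

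Genotype alone called no member. With all libraries the same tests did not call Tspo, the targeted gene, either. Its log2 folds were -1.23 on chow and -2.07 on MCD, each at an unadjusted p under 0.05 in edgeR. Without the 3 libraries Tspo was called lower on both diets, by log2 folds of -1.92 and -2.68. A count of 0 members with all libraries thus does not show that genotype had no effect. On chow 0 members were called, with 3 at an unadjusted p under 0.05 in edgeR and 0 called by DESeq2, where 0.00896% of all genes (1 gene) were called. Without the 3 libraries 0 members were called, where 4.6% of all genes were, 1.81% higher and 2.79% lower. By overlap, 0 members had separate groups, where 4.35% of all genes did. The smallest p was for Rps27a, which encodes a ubiquitin fused to a 40S protein. It stood at 253, 304, 378 and 716 CPM in WT chow and at 383, 359, 407 and 3468 CPM in KO chow, a log2 fold of 1.48 ± 0.68 (adjusted p = 0.477). The groups overlapped, and the fold rests on the library labelled KO chow 4. On MCD 0 members and 0% of all genes were called, with 0 members at an unadjusted p under 0.05 and 0 called by DESeq2. By overlap 0 members had separate groups, where 0.797% of all genes did, and without the 3 libraries 0 members were called, where 0.00891% of all genes were. Of the 77 folds 75 were positive there, with a median of 0.25 where that of all genes was 0.0019. With the 3 libraries left out 46 were positive and the median was 0.0083. The smallest p was for Rpl13, at 372, 363, 413 and 347 CPM in WT MCD and 557, 403, 428 and 356 CPM in KO MCD (log2 fold 0.22 ± 0.16, adjusted p = 1). Its overlapping groups differed mainly through the library labelled KO MCD 1.

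That library and the one labelled KO chow 4 held the values farthest from the rest of their groups. In KO chow 4 the members did not move as a block: 52 lay above all 3 other KO chow libraries and 19 below all 3, with log2 differences from the mean of those 3 that ran from -1.10 for Rpl19 to 3.18 for Rps27a. As ratios on the linear scale, 29 members were over 2-fold and 15 over 5-fold higher. Rps27a at 3468 CPM was 9.05 times the mean of the other 3 libraries, Rpl36a at 1188 CPM 8.81 times, Rpl39 at 1407 CPM 8.81 times and Rplp1 at 4751 CPM 8.73 times. Rpl19, by contrast, stood at 202 CPM where the others had 486, 430 and 392 CPM. Of the partners in the stalk, Rplp1 was thus 8.73 times the mean of the others, while Rplp2 stood at 105 CPM against 171, 156 and 137 CPM. The median log2 difference was 0.80 for 40S genes and 0.25 for 60S genes. Rpl19 was chosen for naming after its value was seen.

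Most of these genes were also high in the other libraries that stood apart. In the library labelled KO MCD 1, 69 members lay above all 3 others and 3 below, 29 were over 2-fold higher, and the highest ratio was 3.89. Of the 29 members over 2-fold in KO chow 4 and the 29 in KO MCD 1, 27 were shared, 93.1% of each list. In WT chow 4, 14 members were over 2-fold higher, up to a ratio of 2.37, and all 14 were in both lists. Across the 77 genes the log2 differences correlated with Pearson's r of 0.935 between KO chow 4 and KO MCD 1, 0.871 between KO chow 4 and WT chow 4, and 0.947 between KO MCD 1 and WT chow 4 (Spearman's rho 0.922, 0.869 and 0.945). These describe genes of 3 libraries, which are not independent replicates, and KO chow 4 and WT chow 4 were compared with different libraries.

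**Figure D4:**
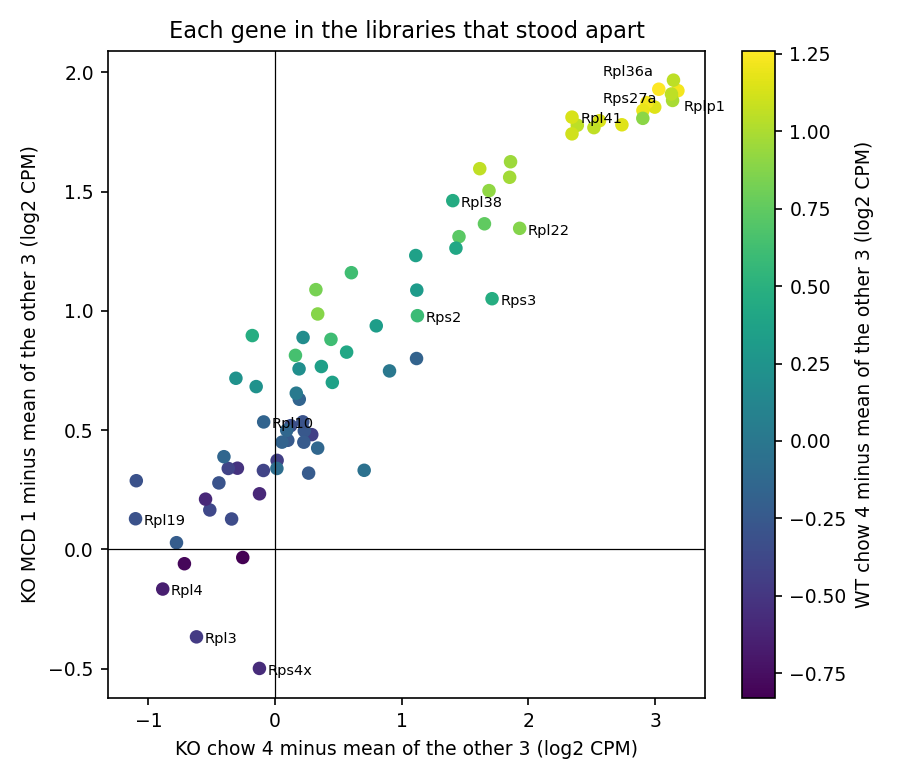
Log2 CPM of each of the 77 genes minus the mean of the other 3 libraries of its group, for the library labelled KO chow 4 (horizontal), the library labelled KO MCD 1 (vertical) and WT chow 4 (colour). Genes high in one of the 3 libraries are high in the others, from Rps27a, Rpl36a and Rplp1 at the top right to Rpl4 and Rpl3 at the lower left.

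Values that moved with these libraries are given as measured, and their part in the result was not tested. The 32 short messages outside the ribosome were higher by a median log2 of 0.34 in KO chow 4, 0.70 in KO MCD 1 and 0.16 in WT chow 4, close to the members' medians of 0.34, 0.77 and 0.23. The 13 long messages had medians of -0.43, -1.25 and -0.32. These libraries were set apart by an index made from the same long and short messages, so their medians are no separate support. The 5 red cell genes (Hba1, Hba2, Hbb, Alas2 and Slc4a1, none at 0 in every library) summed to 4806 CPM in KO chow 4, the highest of the KO chow range that began at 561 CPM, to 1610 CPM in WT chow 4 within a range of 1241 to 1840 CPM, and to 144 CPM in KO MCD 1 within 113 to 163 CPM. The 8 macrophage markers in the table summed to 542 CPM in KO chow 4, the lowest of its group, and to 707 CPM in KO MCD 1, the highest of its group. In WT chow 4 they summed to 566 CPM, within 486 to 681 CPM. KO chow 4 was also lowest of its group for hepatocyte, stellate cell and fibroblast, bile duct and lymphocyte markers, and highest for endothelium. WT chow 4 was lowest of its group for all these lists. KO MCD 1 was lowest for endothelium and lymphocyte markers and inside the range for the others.

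**Figure D5:**
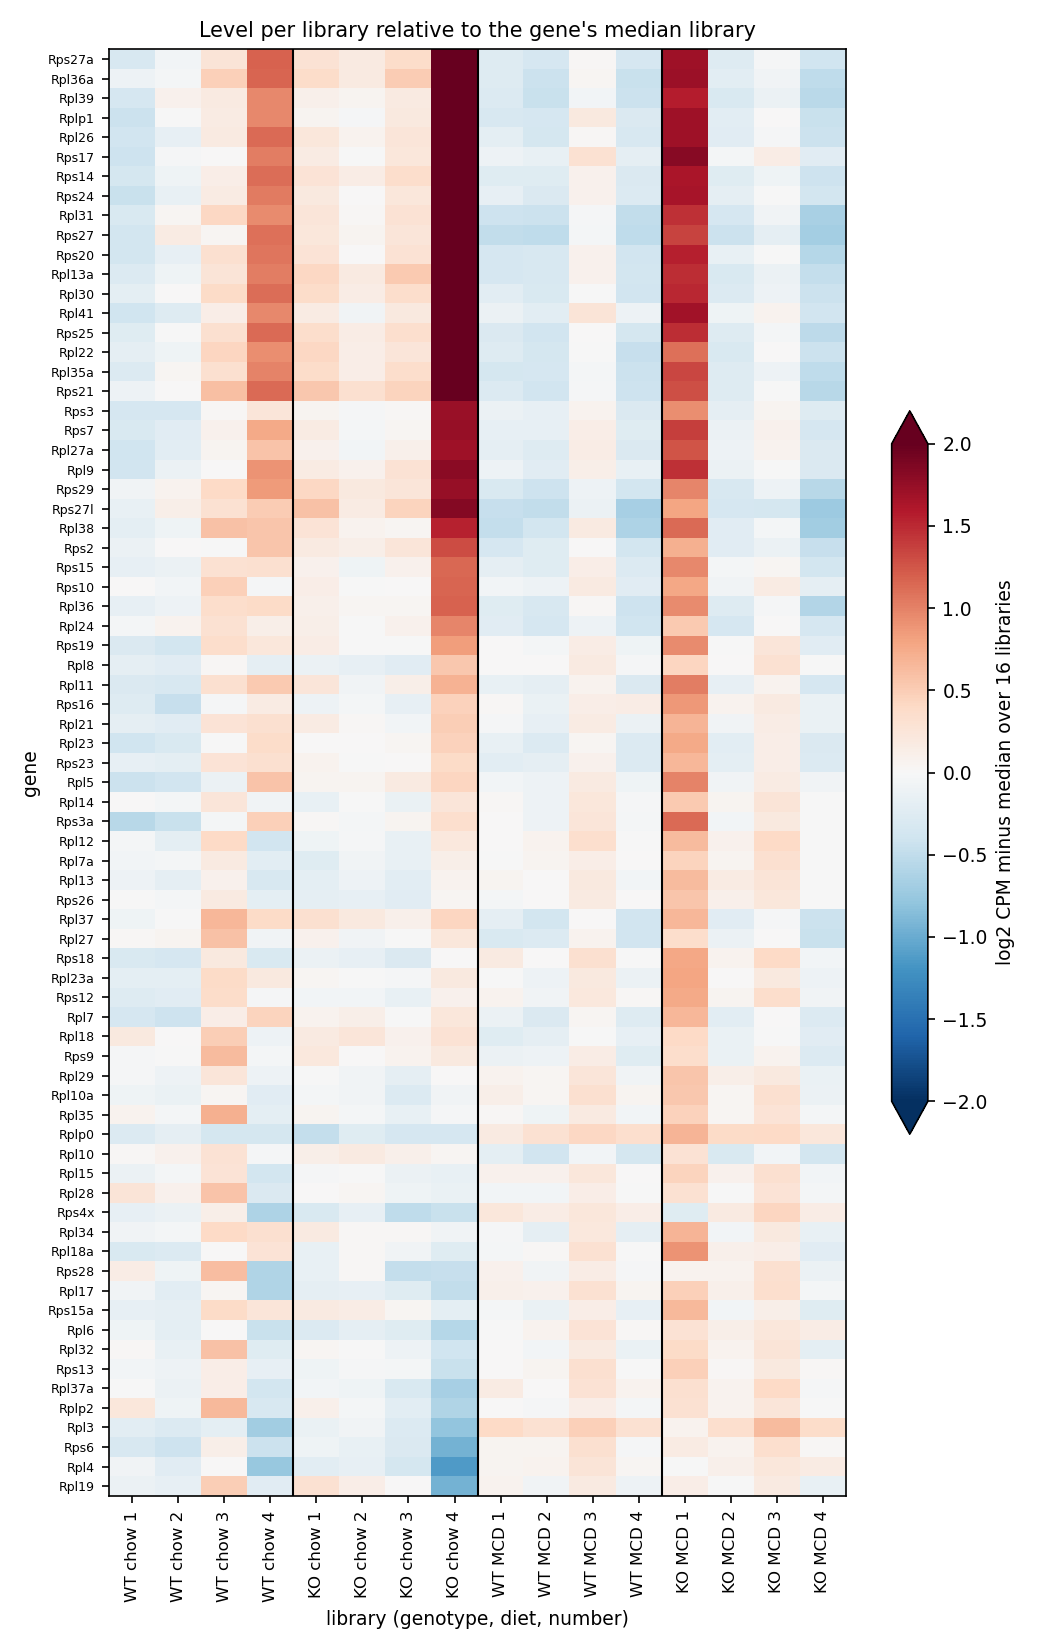
Heat map of 74 of the 77 genes (rows) in the 16 libraries (columns), as log2 CPM (with 0.1 CPM added) minus the gene's median over libraries, with colours ending at -2 and 2 and genes ordered by their difference in KO chow 4. The columns KO chow 4, KO MCD 1 and WT chow 4 shade from red at the top to white or blue at the bottom, whereas Rplp0 is red in all 8 MCD columns and blue in all 8 chow columns.

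Without the libraries that stood apart, the members' spread was smaller in each group that had held one of them. Those libraries held many of the members' values farthest from their groups, so this follows in part from leaving them out. The median SD of log2 CPM within a group was 0.335 in WT chow, 0.322 in KO chow, 0.148 in WT MCD and 0.422 in KO MCD. It was 0.265, 0.0926, 0.148 and 0.183 without the 3 libraries. The widest was Rps27a in KO chow, with an SD of 1.59. Over pairs of members, the median correlation of deviations from the group mean was 0.607 over 16 libraries and 0.832 over the remaining 13, points that share library and depth. Over the 13, single pairs ran from -0.312 to 0.993, with 58.0% over 0.8. Neither such a spread nor such a correlation was computed for other genes. WT MCD 3 lay above the mean of the other WT MCD libraries for all 77 members, by a median log2 of 0.27. This was not particular to the members. It also lay above for 65 of 69 genes of the mitochondrial ribosome (median 0.24) and 28 of the 32 short messages (median 0.20).

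Rps2, Rplp1, Rpl41 and Rpl13a are described for having the 4 highest mean CPM values over all 16 libraries. That choice rests in part on the libraries that stood apart: without them Rps2, Rpl4, Rpl41 and Rplp0 have the 4 highest. Message lengths were not at hand, so levels are not compared between genes. Rps2, of the 40S entry channel, stood at 714, 776, 776 and 1138 CPM in WT chow, 883, 842, 923 and 1922 CPM in KO chow, 613, 659, 784 and 601 CPM in WT MCD and 1270, 662, 717 and 563 CPM in KO MCD. Rpl41, the smallest ribosomal protein, stood at 450, 496, 650 and 1154 CPM in WT chow, 660, 562, 673 and 3198 CPM in KO chow, 545, 508, 704 and 551 CPM in WT MCD and 1891, 558, 621 and 451 CPM in KO MCD. In both genes the 3 libraries that stood apart exceeded all others of their group. Neither gene was called for diet with all libraries (log2 folds of -0.36 ± 0.29 and -0.25 ± 0.55 in the wild type, and -0.51 ± 0.29 and -0.53 ± 0.55 in the knockout). Rpl13a, which is also known for silencing of inflammatory messages, stood at 342, 388, 497 and 842 CPM in WT chow and at 328, 333, 441 and 320 CPM in WT MCD (log2 fold -0.54 ± 0.56, adjusted p = 0.472).

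Several members have tissue-restricted or duplicated paralogs. Rpl3l, of heart and skeletal muscle, and Rpl39l, of testis, were at or near 0 throughout, the latter at 0 to 1.47 CPM with its highest value in the library labelled KO chow 4. Rpl22l1 stood at 20.2, 29.2, 27.0 and 53.4 CPM in WT chow and at 23.8, 28.2, 23.5 and 351 CPM in KO chow, where Rpl22 stood at 107, 114, 164 and 231 CPM and at 162, 133, 144 and 556 CPM. Both paralogs were highest in library 4 of each of these chow groups. Rpl36al stood at 126, 118, 194 and 205 CPM in WT chow and at 93.7, 78.1, 107 and 82.8 CPM in WT MCD, without overlap but short of the threshold (log2 fold -0.83 ± 0.31, adjusted p = 0.0503). Rpl36a gave a log2 fold of -0.73 ± 0.66 (adjusted p = 0.41). Rpl7 (log2 fold -0.15 ± 0.22 in WT and -0.01 ± 0.22 in KO) and Rpl39 (-0.59 ± 0.65 and -1.25 ± 0.65) were not called with all libraries either. Ribosomal protein genes have many near-identical processed pseudogenes, and reads shared with a copy in the annotation are split by estimation. Values were whole numbers in all libraries for 65 members, in some for 7 and in none for 5 (Rpl19, Rpl27a, Rpl28, Rpl7a and Rps10), so split reads bear on these 12. Whole values do not show that the 65 hold no reads from copies, as the annotation used is not given. The 7 include Rpl17, not whole in 93.8% of libraries, and Rpl36a, not whole in 87.5%.

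Groups within the ribosome are read against the share of all genes called, 18.2% higher and 15.9% lower in WT, 21.9% and 18.5% in KO, and without the 3 libraries 25.8% and 24.7%, 27.9% and 23.8%. Of the 31 genes of the 40S subunit 1 was higher in the wild type, and 3 higher and 1 lower in the knockout. Of the 46 of the 60S subunit 2 and 6 were higher and 0 lower. Over the other 13 libraries the 40S genes had 2 higher and 3 lower in the wild type, and 4 higher and 8 lower in the knockout. The 60S genes then had 2 higher and 5 lower, and 6 higher and 9 lower. Rpl5 and Rpl11, which form the 5S particle and bind Mdm2 when assembly fails, were not called (log2 folds 0.02 and -0.23 in WT, 0.14 and -0.02 in KO). Of 9 genes at the rim of the exit tunnel 0 were called in WT and 1, Rpl17, in KO, with list medians of -0.52 and -0.42. Over the other 13 libraries 0 were called in the wild type, 1 was higher and 4 lower in the knockout, and the medians were -0.26 and -0.40. Of 18 genes mutated in Diamond-Blackfan anemia, an inherited failure of red cell production, 0 were called in either genotype (1 at an unadjusted p under 0.05 in the knockout and 0 in the wild type). With the 3 libraries left out 3 of them were lower in the wild type, and 1 was higher and 5 lower in the knockout. Rps6, the substrate of S6 kinase, stood at 359, 343, 312 and 197 CPM in KO chow and at 429, 400, 480 and 388 CPM in KO MCD, without overlap, and missed the threshold (log2 fold 0.49 ± 0.19, adjusted p = 0.054). Rps6, Rpl5 and Rpl11 were chosen for naming after earlier values were known. The 6 tested ribosomal proteins outside the symbol rule, Rpsa and Fau among them, were not called with all libraries in any comparison. Leaving the 3 libraries out, 1 was higher and 2 lower on MCD in the wild type, and 1 higher and 3 lower in the knockout.

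The starts of 61 members were taken from the RefSeq promoter table, where each had a single entry. The other 16 had no entry or several and were left out. At the annotated start, 24 of the 61 (39.3%) had a C followed by at least 4 C or T, where 2.63% of 33469 promoters of the same length (300 bases) did. Those 33469 were not limited to genes with a single entry, so the sets compared here are not chosen alike. Annotated starts can be off by some bases. Within 20 bases on either side of the start 86.9% of members and 47.8% of all promoters had such a tract, and with at least 7 C or T after the C 72.1% and 13.8% did. On either strand of the 300 bases the letters CCGGAAG, a core bound by ETS factors, occurred in 32.8% of members and 8.75% of all promoters, AAGATGGC, bound by YY1, in 8.2% and 3.17%, and TATAAA in 11.5% and 14.2%. Rplp0, Rpl3 and Rps27l were among the 7 members with TATAAA. Members with the tract at the annotated start and those without had medians of 0.28 and 0.44 for the log2 difference in KO chow 4, and -0.21 and -0.14 for the log2 fold on MCD in the wild type. Among the starts printed above, Rpl19, with a tract of 10 bases, and Rplp1, with one of 9, lay at opposite ends in KO chow 4.

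Other messages of the translation machinery give the setting. Of 17 further TOP messages 3 were higher and 2 lower in the wild type on MCD, and 5 higher and 1 lower in the knockout. That is 17.6% higher and 11.8% lower in the wild type, near the 18.2% and 15.9% of all genes, and in the knockout 29.4% and 5.88%, where 21.9% and 18.5% of all genes were. The counts without the 3 libraries were 6 higher and 4 lower, and 5 higher and 6 lower. Of all genes 25.8% were then higher and 24.7% lower in the wild type, and 27.9% and 23.8% in the knockout. Eef1a1, the elongation factor that brings tRNA to the ribosome, stood at 3047, 3211, 2833 and 3090 CPM in WT chow and at 4322, 4291, 4714 and 4010 CPM in WT MCD (log2 fold 0.51 ± 0.15, adjusted p = 0.0171), and gave 0.51 ± 0.15 in the knockout (adjusted p = 0.0152). Pabpc1, the poly(A)-binding protein, rose by a log2 fold of 0.59 ± 0.20 (adjusted p = 0.0313) and 0.84 ± 0.20 (adjusted p = 0.00393). Eif4a2, a helicase of initiation, was lower by a log2 fold of -0.59 ± 0.14 (adjusted p = 0.00523) and -0.61 ± 0.14 (adjusted p = 0.00318). The list medians, -0.06 and 0.09, were near those of all genes.

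Of 46 ribosome assembly genes 7 were higher and 3 lower in the wild type, and 9 higher and 1 lower in the knockout. The 15.2% and 19.6% higher lie below the 18.2% and 21.9% of all genes, and the genes named next are single calls. There were 12 higher in each genotype, and 4 and 3 lower, without the 3 libraries. Of all genes 25.8% and 27.9% were then higher and 24.7% and 23.8% lower. The 12 of 46 lie near those shares of higher genes. Polr1a, the large subunit of RNA polymerase I, which transcribes ribosomal RNA, stood at 22.8, 15.8, 12.3 and 13.8 CPM in WT chow and at 32.5, 29.7, 22.6 and 35.7 CPM in WT MCD, a log2 fold of 0.89 ± 0.23 (adjusted p = 0.00785), with WT chow 1 just above the lowest WT MCD library. In the knockout its log2 fold was 1.16 ± 0.23 (adjusted p = 0.00134). Nucleolin (Ncl) and Bop1, both of the nucleolus, rose in both genotypes, by 0.89 and 0.88 on the log2 scale in WT and 0.88 and 0.71 in KO. Nop10, of the particle that makes pseudouridine in ribosomal RNA, fell by 1.14 (adjusted p = 0.000444) and 0.89 (adjusted p = 0.00221) on that scale. Of 16 genes of mTORC1 and translation control 6 were higher and 0 lower in the wild type, and 3 higher and 1 lower in the knockout, and without the 3 libraries 6 higher and 1 lower, and 7 higher and 3 lower. With all libraries that is 37.5% higher in the wild type, where 18.2% of all genes were. In the knockout it is 18.8%, below the 21.9% of all genes. Without the 3 libraries the 7 of 16 higher in the knockout lie above the 27.9% of all genes, so that order turns. Eif4ebp1, the inhibitor of cap binding that mTORC1 switches off, stood at 22.2, 20.2, 24.1 and 23.8 CPM in WT chow and at 38.8, 32.2, 33.6 and 43.0 CPM in WT MCD, with log2 folds of 0.71 ± 0.14 (adjusted p = 0.00111) and, in the knockout, 0.84 ± 0.14 (adjusted p = 0.000271).

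Genes of the mitochondrial ribosome, which translates the few messages encoded by mitochondrial DNA, were mostly lower where called. Of 69 tested 0 were higher and 19 lower in the wild type on MCD, and 0 higher and 26 lower in the knockout, with medians of -0.41 and -0.34, where 15.9% and 18.5% of all genes were lower. Without the 3 libraries 2 were higher and 33 lower in the wild type, and 1 higher and 42 lower in the knockout. Of all genes 25.8% and 27.9% were then higher and 24.7% and 23.8% lower. Mrpl2 stood at 32.0, 31.2, 34.8 and 29.0 CPM in WT chow and at 21.4, 15.6, 22.1 and 18.6 CPM in WT MCD, a log2 fold of -0.71 ± 0.14 (adjusted p = 0.00138). Short messages as a list were also lower, 10 of 32 in WT and 14 in KO with 0 higher (medians -0.74 and -0.81), while 7 of 13 long messages were higher in each genotype with 0 lower. With the 3 libraries left out 24 and 27 short messages were lower and 0 higher, and 8 and 10 long messages higher and 0 lower. Those libraries were set apart by an index made from these same messages, so the larger counts are no separate support. Among marker lists, the summed level of 7 stellate cell and fibroblast genes ran from 237 to 410 CPM in WT chow and from 318 to 1033 CPM in WT MCD, and that of 5 red cell genes from 1241 to 1840 CPM and from 94.1 to 257 CPM. Their part in the members' values was not tested.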

How the data were processed

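Messenger RNA was enriched from total RNA of rat liver and made into stranded libraries, per the labels' protocols. The deposited table holds the authors' expected counts per gene symbol. RSEM (1.2.15), the aligner Bowtie2 (2.1.0) and the rat build rn6 stand in the submitters' processing notes, without their roles, and the sources used here do not give the gene annotation or strand setting. A second deposited table, TMM-scaled by the authors, was not used. Of values above 0, 15.1% were not whole numbers (tolerance 0.005). Counts were rounded, then fitted with edgeR 4.0.16 (R 4.3.3): filterByExpr over the 4 groups (11162 of 17168 genes), TMM factors, 1 term per group in 1 fit of 16 libraries (12 residual degrees of freedom, common biological coefficient of variation 28.0%), the robust quasi-likelihood test and Benjamini-Hochberg adjustment over all genes. SE is the log2 fold divided by the square root of F. CPM is relative to the TMM-scaled library total, and log2 CPM has a prior count of 2. The fit was tested on simulated data. Alternatives included DESeq2 1.42.0, other scalings, filters and left-out libraries. Named are the 4 highest members, up to 8 called members per direction, the smallest p where none was called, paralog pairs, Tspo, and up to 4 called genes per other list. Some genes are not reported by name here. The members and lists were chosen with earlier results of these data known. Reads carry no molecular identifiers, so they need not be independent molecules.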

Additional observations from a re-analysis of the deposited data

Results flagged for a closer look

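Values were held against the rest of their own group of 4, for the share of counts and for 20 named members (84 groups), and a value was listed where its gap to the nearest other, divided by the group's range, exceeded Dixon's critical value for 4 samples. Chance lists about 1 in 20 groups where groups are independent and chosen beforehand, which these are not. Their genes share libraries and vary together. Some were named through values in the same libraries, such as Rplp1 and Rpl13a for their mean level and Rps27a for its p on chow. The count of listed values is therefore not set against chance. There were 25 such values, 11 of them in the library labelled KO chow 4, 8 in the library labelled KO MCD 1, 5 in WT MCD 3 and 1 in WT chow 4, and each was the highest of its group.

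In the library labelled KO chow 4 the share of counts in ribosomal protein genes was 3.72%. Its levels were 1922 CPM for Rps2, 4751 CPM for Rplp1, 3198 CPM for Rpl41, 3066 CPM for Rpl13a, 240 CPM (239.5) for Rps27l and 3468 CPM for Rps27a. Rps27 stood at 1532 CPM, Rpl39 at 1407 CPM, Rpl22 at 556 CPM and Rpl36a at 1188 CPM (1188.5). In the library labelled KO MCD 1 the levels were 1667 CPM for Rplp1, 1891 CPM for Rpl41, 1149 CPM for Rpl13a, 117 CPM for Rps27l and 1021 CPM for Rps27a, and 520.0 CPM for Rps27, 437 CPM for Rpl39 and 344 CPM for Rpl36a. WT chow 4 held 1138 CPM of Rps2. These are the 3 libraries whose message length index and, for the first 2, Tspo level were also unlike the rest of their group.

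In WT MCD 3 the levels were 588 CPM for Rplp1, 441 CPM for Rpl13a, 710 CPM for Rpl4 (710.5), 288 CPM for Rpl17 and 198 CPM for Rps27. Its message length index, 1.25, was the lowest of WT MCD, and its part in these values was not tested.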

How the results depend on the processing

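Rplp0 kept its direction and its call in both genotypes under DESeq2, DESeq2's size factors in edgeR, TMM without the members, no filter, the replicate block, the message length index as a covariate, plain library totals (chosen after seeing the data) and without the 3 or the 4 libraries named here. With the index as a covariate 29 members were higher in WT and 24 in KO, of which 1 and 3 were among those called without it, and 0 were lower in the knockout; the index is itself higher on MCD. With plain library totals 28 and 48 were higher and 0 lower in the knockout. Without the 3 libraries that stood apart 8 were lower in WT and 17 in KO. In the knockout 0 were lower with the replicate block, which called 10 members (9 shared), and without the 4 libraries numbered 4. Same-numbered libraries did not deviate together in every pair (correlation over 0.1 in 1, 3, 0 and 2 of 4 pairs). The highest correlation was 0.511, between WT chow 4 and KO chow 4, both among the libraries that stood apart. With 4 libraries in a group, this cannot decide whether the numbers pair the samples or follow shared handling. Leaving out 1 library at a time gave 2 to 3 higher members in the wild type and 0 lower, except 1 lower (Rpl37) without KO MCD 1. In the knockout it gave 4 to 11 higher (4 without KO MCD 3, 11 without WT chow 3 or KO MCD 4) and 0 to 22 lower (22 without KO MCD 1, and 0 without WT chow 2, KO chow 4, WT MCD 1, WT MCD 2, KO MCD 2, KO MCD 3 or KO MCD 4). The comparisons of genotypes and of diet effects called 0 members each time.

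Rps27l turned with the index as a covariate, to log2 folds of 0.41 on MCD in the wild type, 0.0395 in the knockout and -0.0503 for the knockout effect on MCD. That last effect was -0.0410 without the 3 libraries, and the difference of its diet effects was 0.17 without those numbered 4. Rpl4 in the knockout lost its call with DESeq2's size factors (adjusted p = 0.0609) and with no filter (0.0543), and Rps27l with the block (0.0729). Rpl4, Rps4x and Rps27l lost theirs without the libraries numbered 4. Rpl3, Rpl4, Rpl6, Rps4x and Rpl37a lost theirs with the index. DESeq2 called 3 and 12 members for diet and gave no adjusted p for 15. Without the 20 highest genes the shares were 3.07%, 3.53%, 3.89% and 4.66% (WT chow, KO chow, WT MCD, KO MCD). The share of starts with a tract moved from 39.3% to 86.9% when 20 bases on either side were searched. The cause of these differences was not tested.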
